A study of Mus musculus with 27 samples.

Results

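Type I interferon response genes are the genes that cells switch on after interferon α or β has bound its receptor. A list of 39 such genes was examined in the mouse brain after infusion of autoantibodies against IgLON5, a cell adhesion protein of neurons. The members were found by name: a row of the count table entered when its Ensembl identifier, without the version, carried one of the 39 listed symbols in the GENCODE M21 annotation. All 39 symbols were found, each in 1 row, among the 55487 rows of the table.

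The data are RNA-seq libraries of cortex and hippocampus from the side of the brain opposite to the pump, taken from 14 male C57Bl/6J wild-type mice that were 8 weeks old at the start. Each mouse was infused for 14 days into the right lateral ventricle at 0.25 μl/h with PBS, with a control human IgG (pCtrl) or with α-IgLON5#1, a polyclonal antibody against IgLON5 that had been affinity-purified from patient plasma. PBS was given to mice 14, 32, 33, 38 and 74, pCtrl to mice 10, 11, 15, 37 and 75, and α-IgLON5#1 to mice 8, 9, 16 and 17. Every mouse gave a library of each tissue except pCtrl mouse 11, which gave cortex only, so the groups hold 5 PBS, 5 pCtrl and 4 α-IgLON5#1 cortices and 5, 4 and 4 hippocampi. By the study's text pCtrl was isolated from serum of a healthy subject and held several IgG subclasses. The study names a separate monoclonal control for its work on cultured neurons. The labels nevertheless call the control of these mice a monoclonal antibody, so its nature remains unsure. The labels also call the cell type neurons, but each library holds a whole piece of tissue, and defining markers of microglia, astrocytes, oligodendrocytes and endothelial cells were counted in all 6 groups.

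In the type I pathway, foreign or misplaced nucleic acids are recognized by sensors inside the cell, and interferon α and β are then made and secreted. Binding to the receptor made of IFNAR1 and IFNAR2 activates the kinases JAK1 and TYK2, and the factor ISGF3, which holds STAT2 and IRF9, then binds interferon-stimulated response elements in promoters. The genes that follow encode sensors, antiviral enzymes, membrane proteins and brakes on the pathway itself. In the brain, microglia, astrocytes, endothelial cells and neurons can all respond to interferon, and interferon-responsive microglia are known from injury, infection and aging.

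The sequence that ISGF3 recognizes can be seen directly in some of these promoters. RefSeq windows from 250 bases before to 50 bases after the start of transcription (GRCm38.p6) were at hand for 29 of the 39 members. The core of the response element, GAAA followed by any 2 bases and again GAAA, read on both strands and counting matches that overlap each other, was in a window of 15 of these 29 members and of 3.99% of all 27025 genes with a window. To show what this core looks like in place, the match nearest to the start is printed with 15 bases on each side for members of different families. Capitals mark the core, which shows as a pair of TTTC where it lies on the opposite strand.
Isg15 (chr4:156200860-156200899, minus strand): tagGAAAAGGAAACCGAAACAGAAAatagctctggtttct
Ifit1 (chr19:34640789-34640828, plus strand): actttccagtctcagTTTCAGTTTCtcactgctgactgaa
Ifit3 (chr19:34583392-34583431, plus strand): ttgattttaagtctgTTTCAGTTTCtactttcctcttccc
Oas1a (chr5:120907515-120907554, minus strand): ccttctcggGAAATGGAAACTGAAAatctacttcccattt
Oas3 (chr5:120777710-120777749, minus strand): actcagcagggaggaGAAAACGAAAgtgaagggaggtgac
Rsad2 (chr12:26456548-26456587, minus strand): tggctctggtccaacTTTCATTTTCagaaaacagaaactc
Bst2 (chr8:71537572-71537611, minus strand): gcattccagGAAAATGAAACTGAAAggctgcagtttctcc
Stat2 (chr10:128270261-128270300, plus strand): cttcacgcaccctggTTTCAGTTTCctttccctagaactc
The upstream part of the Isg15 window held 3 overlapping copies of the core in 1 run, as its 250 bases before the start show (chr4:156200819-156201068, minus strand).
Isg15: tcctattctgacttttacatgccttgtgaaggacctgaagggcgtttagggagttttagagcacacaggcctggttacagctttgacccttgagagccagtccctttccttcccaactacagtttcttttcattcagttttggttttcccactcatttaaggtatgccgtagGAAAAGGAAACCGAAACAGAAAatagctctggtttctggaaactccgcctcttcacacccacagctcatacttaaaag
Lgals3bp, the member with the smallest adjusted p in both tissues, had no copy in its window (upstream part chr11:118401960-118402209, minus strand).
Lgals3bp: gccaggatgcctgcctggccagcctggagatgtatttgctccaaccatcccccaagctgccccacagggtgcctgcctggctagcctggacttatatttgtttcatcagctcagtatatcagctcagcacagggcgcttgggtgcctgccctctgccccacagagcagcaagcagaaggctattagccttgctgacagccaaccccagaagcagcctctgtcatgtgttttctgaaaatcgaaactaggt
The core that other factors of the STAT family bind, TTC followed by any 3 bases and GAA, which reads the same on both strands, was in a window of 5 of the 29 members and of 9.55% of all genes. The median log2 fold change between α-IgLON5#1 and pCtrl cortices was 1.78 for the 15 members with the GAAA pair, 1.25 for the 14 members whose window lacked it, and 2.26 for the 10 members with no window. The ranges of the first 2 sets overlapped, from 0.61 to 3.52 and from 0.06 to 3.47. A match describes letters in a window and shows no binding. Only the exact spacing of 2 bases was counted, so a window without a match may still hold a variant of the element.

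Library totals ran from 19385642 to 58550621 counts, and 20271 genes had at least 10 counts in at least 4 libraries and were tested. All 39 members passed this filter. On the 19 control libraries alone 38 members passed it, the exception being Oas3. Levels are given as CPM (counts scaled to a common library size) after TMM normalization, at which 3 counts correspond to between 0.0492 and 0.169 CPM, depending on the library. A member was called at an adjusted p under 0.05 (edgeR, all genes tested) together with a fold change above 2. Some libraries stood apart. Hippocampi of pCtrl mice 10 and 37 had less of the summed hippocampal neuron markers (551 and 375 CPM) than the other 11 hippocampi (805 to 1240 CPM) and more of the cortical ones (324 and 381 CPM, against 187 to 277 CPM). The hippocampus of PBS mouse 74 held 3880 CPM of pituitary hormone genes. The hippocampus of α-IgLON5#1 mouse 9 differed from the other 3 of its group by a chi-square per degree of freedom of 185, 279 and 282 over all genes, where pairs of those 3 gave 13.8 to 19.3, and it had the lowest composition score (-2.96, cortical minus hippocampal neuron markers on the log2 scale) and the lowest TMM factor (0.884) of all libraries. All α-IgLON5#1 mice carry label numbers from 8 to 17, whereas control mice carry numbers from 10 to 75, so any difference that goes with the numbering cannot be told apart from treatment in the full comparison.

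In PBS mice the levels of the interferon response genes spanned a wide range in both tissues. Per kilobase of exon, Ifitm3, which encodes a membrane protein that blocks entry of viruses, had the highest level, 13.3 ± 3.43 CPM per kb in hippocampus and 11.4 ± 4.03 in cortex (SD, n = 5 each). It was followed by Lgals3bp (6.94 ± 0.829 and 5.43 ± 1.09 CPM per kb), which encodes a secreted glycoprotein. In hippocampus Stat2, a subunit of ISGF3, had 4.93 ± 0.286 CPM per kb and Cmpk2, a mitochondrial nucleotide kinase gene, 4.8 ± 0.377, which differed by less than their spread. At the lower end, Zbp1, Oasl1 and Oas3 had 0.0886, 0.0631 and 0.0139 CPM per kb in hippocampus. For Oas3 these are 2 to 5 counts a library, and in cortex 0 to 4 counts.

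Cortex and hippocampus of PBS mice differed in 1 of the 39 members, Herc6, which encodes an ISG15 ligase of mice. Herc6 had 14.2, 13.1, 12.5, 11.1 and 12.5 CPM in PBS cortices and 4.88, 5.27, 3.9, 3.74 and 3.86 CPM in PBS hippocampi. Every cortex lay above every hippocampus, and the log2 fold change was 1.55 (SE 0.14, adjusted p = 8.35e-09). With the mouse as a block, 6 members passed the adjusted p in edgeR, as did 29.2% of all genes, and Herc6 alone of them passed the fold. Among all genes tested, 2.7% were called higher in cortex and 2.87% lower. The median member had a log2 fold change of -0.23 between cortex and hippocampus, beside -0.01 over all genes. Herc6 shares 1269 exonic bases with the transcript Gm45193 on the same strand, and reads in that stretch cannot be assigned to either.

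Interferon response genes were higher in α-IgLON5#1 than in pCtrl cortices. Of the 39 members, 28 were called higher than in pCtrl and 0 lower, while 2.14% of all genes tested were called higher and 0.0247% lower. All 39 members had a log2 fold change above 0, as did 48.4% of all genes, with a median of 1.78 and a range from 0.06 for Herc6 to 3.67 for Mx1, and the median over all genes was -0.01. In 10 members (Zbp1, Irf9, Oas1a, Bst2, Slfn2, Slfn8, Ifi204, Trim30a, Ifi35 and Lgals3bp) each of the 4 α-IgLON5#1 cortices lay above each of the 5 pCtrl cortices, as did 3.68% of all genes tested. In hippocampus, 10 members were called higher and 0 lower, where 2.21% of all genes were called higher and 0.237% lower. These 10 were Zbp1, Irf7, Oasl1, Mx1, Bst2, Slfn2, Ifi204, Parp14, Trim30a and Lgals3bp, and all of them were among the 28 called in cortex. The median member had a log2 fold change of 0.98 in hippocampus, the range was 0.09 to 2.84, all 39 were above 0 beside 50.3% of all genes, and the median over all genes was 0.001. In 7 members (Irf7, Irf9, Bst2, Slfn2, Ifi204, Trim30a and Lgals3bp) the α-IgLON5#1 hippocampi did not overlap with the pCtrl hippocampi, and 6.68% of all genes showed the same. In whole tissue, more cells that express a gene and more RNA of that gene per cell cannot be told apart.

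**Figure D1:**
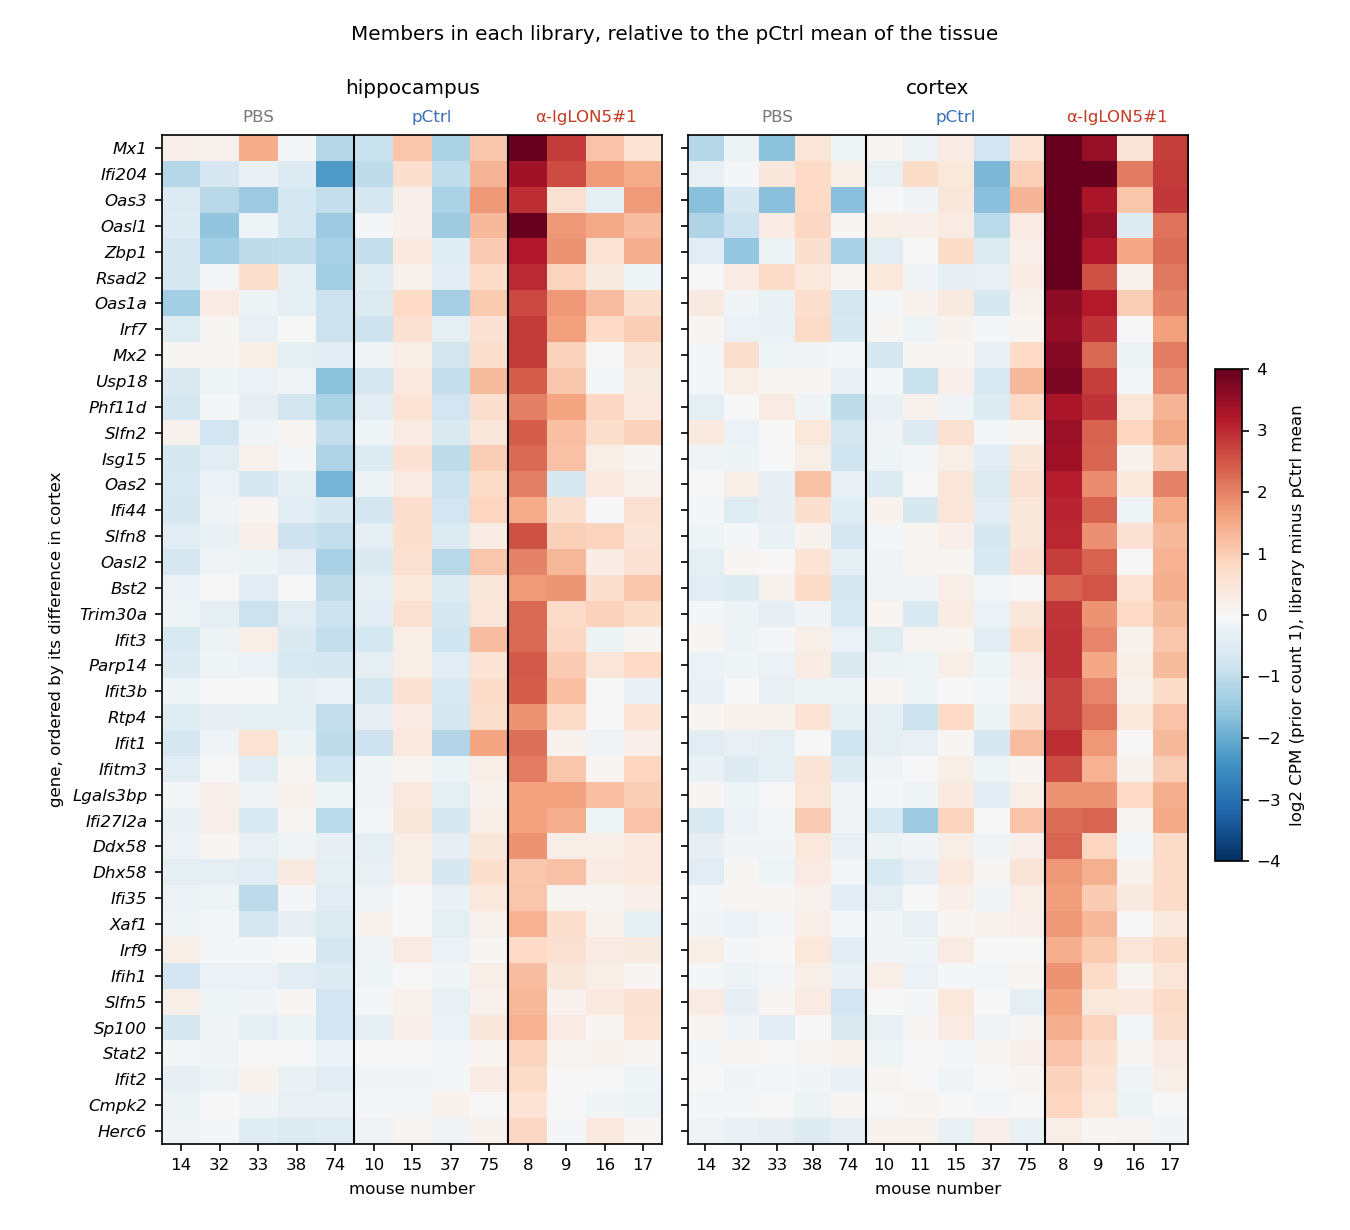
Level of each of the 39 members (rows, ordered by the difference in cortex) in each of the 27 libraries (columns, by mouse number), as log2 CPM with a prior count of 1 minus the mean of the pCtrl libraries of the same tissue, and the colors saturate at the ends of the scale. Mouse 8 has the strongest red in both tissues, mouse 16 is close to the controls in cortex, and pCtrl mouse 75 is reddish in hippocampus.

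The calls in cortex and hippocampus rested on few animals. With the library of mouse 8 in the tissue compared left out, 9 members were called in cortex (Zbp1, Irf7, Oas1a, Bst2, Slfn2, Ifi204, Phf11d, Trim30a and Lgals3bp) and 1 in hippocampus (Lgals3bp), and with both of its libraries left out 15 and 1. Over all genes, the calls of higher expression went from 433 to 219 in cortex and from 448 to 327 in hippocampus without that library, and to 254 and 365 without both. These 9 members were called in cortex whichever of the 9 libraries was left out, and without mouse 16 the number was 35, beside 550 of all genes. In hippocampus the count dropped to 1, namely Lgals3bp, when any one of mice 10 and 37 (pCtrl) or 8 and 9 (α-IgLON5#1) was left out. It stood between 8 and 12 when any other library was. All genes called higher came to 327 to 356 in the former fits and 417 to 515 in the latter. The median log2 fold change stayed above 0 throughout, from 1.27 to 2.08 in cortex and from 0.41 to 1.35 in hippocampus. With the composition score of the tissue as a covariate, the count was 21 in cortex and 1 in hippocampus (Lgals3bp), with medians of 1.52 and 0.48, and 351 and 231 of all genes were called higher. A fit of only the groups compared called 10 and 1 members, and 257 and 286 of all genes. Within the mice numbered 8 to 17, which leaves 3 pCtrl cortices and 2 pCtrl hippocampi, no member was called in either tissue (of all genes, 9 were called higher in cortex and 49 in hippocampus). At an unadjusted p under 0.05 in edgeR there were 35 members in cortex and 5 in hippocampus, against 12.4% and 12.7% of all genes, and the medians were 1.91 and 1.15.

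**Figure D2:**
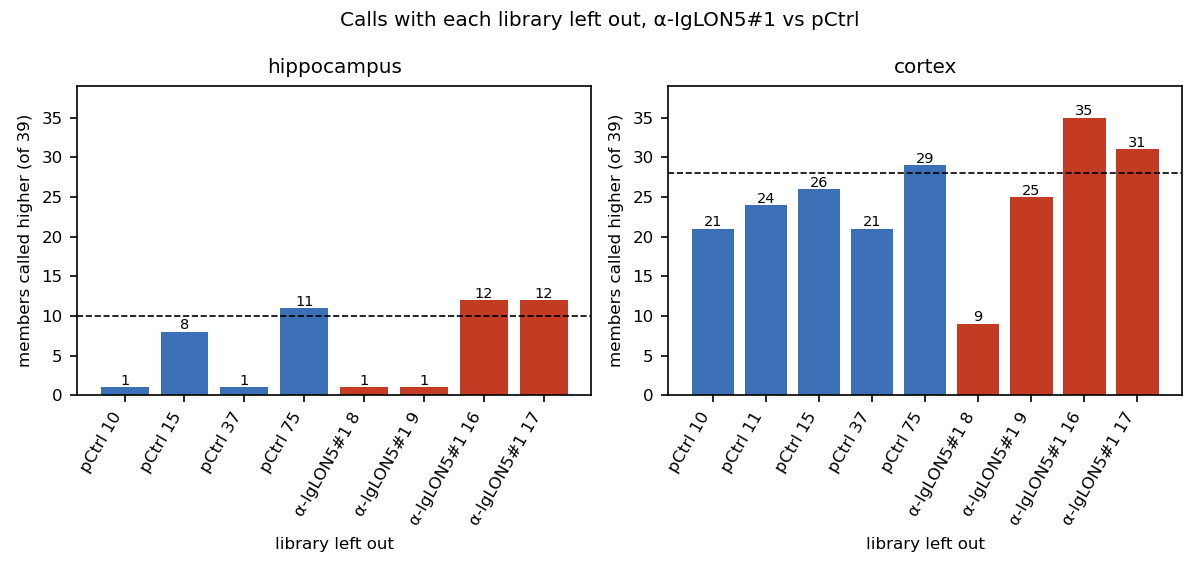
Number of members called higher in α-IgLON5#1 than in pCtrl when the library named on the horizontal axis is left out, with pCtrl libraries in blue and α-IgLON5#1 libraries in red. The dashed line gives the count with all libraries, 10 in hippocampus and 28 in cortex, and the lowest bars are 1 in hippocampus and 9 in cortex.

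In the sentences that follow, values of α-IgLON5#1 libraries are in the order of mice 8, 9, 16 and 17. Values of pCtrl libraries are in the order of mice 10, 15, 37 and 75 in hippocampus and of mice 10, 11, 15, 37 and 75 in cortex. PBS libraries are given by their range.

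Among sensors of nucleic acids, 3 of 4 members were called in cortex and 1 of 4 in hippocampus. Zbp1 encodes a sensor of Z-form nucleic acids that can start necroptosis. Cortices of α-IgLON5#1 mice had 7.09, 3.14, 0.976 and 1.56 CPM of Zbp1, against 0.219, 0.319, 0.542, 0.211 and 0.366 CPM with pCtrl and 0.0887 to 0.504 CPM with PBS. All 4 lay above every control cortex, and the log2 fold change against pCtrl was 3.20, SE 0.57, adjusted p = 0.000788. In hippocampus Zbp1 had 6.5, 2.42, 1.01 and 1.89 CPM, against 0.347, 0.903, 0.476 and 1.4 CPM with pCtrl and 0.246 to 0.409 CPM with PBS. There mouse 16 lay below pCtrl mouse 75, and the log2 fold change was 1.89, SE 0.55, adjusted p = 0.0348. Ddx58 encodes RIG-I, which binds viral RNA. Its cortical values were 28.2, 10.2, 5.48 and 9.68 CPM with α-IgLON5#1, 4.91, 5.27, 6.64, 5.13 and 6.45 CPM with pCtrl and 4.48 to 7.5 CPM with PBS. Mice 8, 9 and 17 lay above every pCtrl cortex, and Ddx58 was called there (log2 fold change 1.23, SE 0.34, adjusted p = 0.0379). In hippocampus the values were 26, 9.07, 9.01 and 9.83 CPM and 5.68, 8.89, 6 and 10.2 CPM, and in this tissue mouse 8 alone exceeded the pCtrl libraries (log2 fold change 0.80, SE 0.35, adjusted p = 0.181). Dhx58 encodes LGP2, a helicase without a signaling domain that tunes RIG-I and MDA5. It had 4.13, 3.32, 1.38 and 2.08 CPM in α-IgLON5#1 cortices and 0.782, 0.958, 1.6, 1.26 and 1.76 CPM in pCtrl cortices, a log2 fold change of 1.07, SE 0.30, adjusted p = 0.0491. The hippocampal values of Dhx58 overlapped (3.35, 3.6, 1.93 and 2.06 CPM against 1.27, 1.9, 0.999 and 2.55 CPM, log2 fold change 0.68, SE 0.32, adjusted p = 0.207). Ifih1, which encodes the RNA sensor MDA5, passed the adjusted p in cortex but not the fold, with a log2 fold change of 0.92, SE 0.24, adjusted p = 0.0306.

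Among transcription factors, Irf7 was called in both tissues, while Irf9 and Stat2 were not called in either. IRF7 is the factor that amplifies interferon production. Irf7 had 19.5, 12.6, 1.64 and 5.25 CPM in α-IgLON5#1 cortices, against 1.72, 1.49, 1.86, 1.58 and 1.76 CPM with pCtrl and 1.07 to 2.87 CPM with PBS. Mouse 16 lay within the range of pCtrl, and the other 3 mice lay well above it (log2 fold change 2.51, SE 0.48, adjusted p = 0.00188). In hippocampus Irf7 had 16.8, 7.55, 4.2 and 4.81 CPM against 1.35, 3.65, 1.88 and 3.58 CPM, without overlap (log2 fold change 1.66, SE 0.50, adjusted p = 0.0423). Irf9 and Stat2 encode subunits of ISGF3. Irf9 had one of the 6 smallest adjusted p in cortex at a fold just under 2, with 30.7, 23.1, 15.5 and 18.7 CPM against 10.2, 9.74, 13.8, 11 and 11.1 CPM (log2 fold change 0.97, SE 0.19, adjusted p = 0.00169). The groups did not overlap for Irf9 in cortex, nor in hippocampus, where they had 24.9, 22, 18.2 and 18.6 CPM and 13, 18.1, 12.3 and 14.9 CPM (log2 fold change 0.51, SE 0.20, adjusted p = 0.11). Stat2 had 57.9, 42.2, 28.1 and 33 CPM and 23.2, 26.5, 24.9, 27.1 and 30.4 CPM in cortex (log2 fold change 0.61, SE 0.16, adjusted p = 0.0228). In hippocampus Stat2 had 57.7, 33.5, 34.2 and 32.3 CPM and 31, 30.7, 29.8 and 32.9 CPM (log2 fold change 0.34, SE 0.16, adjusted p = 0.226), and mouse 8 stood far above the other 12 hippocampi.

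**Figure D3:**
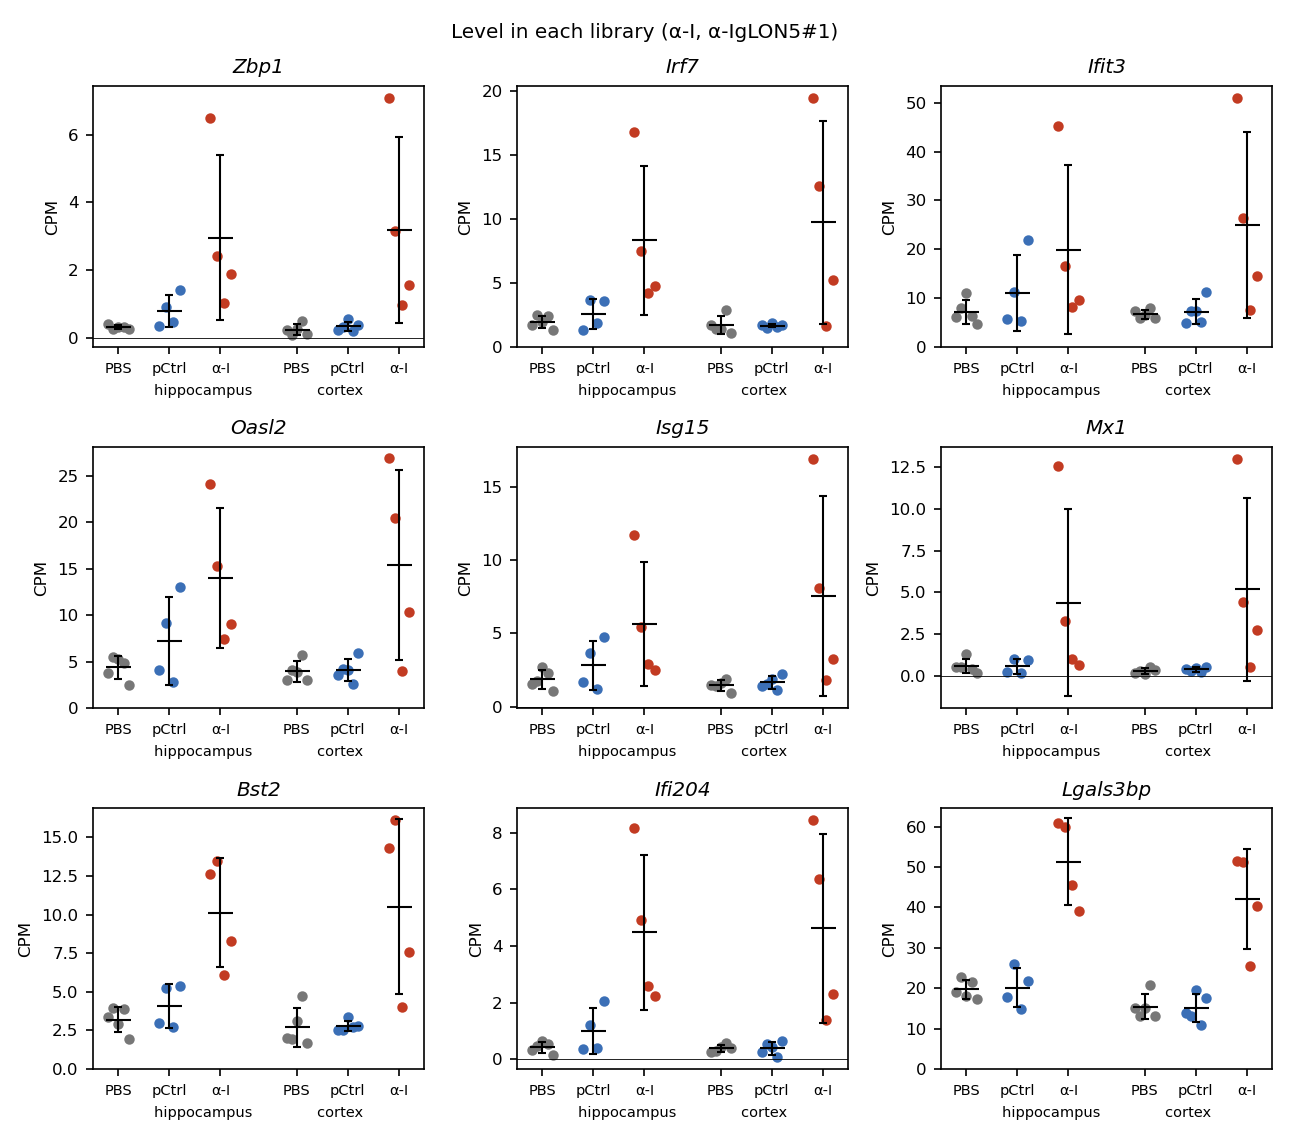
CPM of 9 members in every library of hippocampus and cortex, with PBS in gray, pCtrl in blue and α-IgLON5#1 in red, and the black marks giving mean ± SD of each group of 4 or 5 libraries. For Lgals3bp, Bst2 and Ifi204 the α-IgLON5#1 points lie above all pCtrl points of the same tissue, while for Ifit3, Oasl2 and Isg15 the hippocampal groups overlap.

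The IFIT family, whose proteins bind foreign RNA and hinder its translation, gave 2 calls of 4 in cortex and 0 of 4 in hippocampus. Ifit3 had 51, 26.5, 7.6 and 14.6 CPM in α-IgLON5#1 cortices and 4.91, 7.4, 7.39, 5.13 and 11.3 CPM in pCtrl cortices (log2 fold change 1.78, SE 0.49, adjusted p = 0.0364). Its hippocampal values were 45.3, 16.5, 8.12 and 9.69 CPM and 5.7, 11.2, 5.31 and 22 CPM (log2 fold change 0.84, SE 0.51, adjusted p = 0.352). There pCtrl mouse 75 lay above α-IgLON5#1 mice 9, 16 and 17. Ifit3b, a near copy of Ifit3 whose promoter carries the same stretch around the core, had 25.2, 14.9, 4.24 and 6.31 CPM and 4.01, 3.35, 3.79, 3.62 and 4.42 CPM in cortex (log2 fold change 1.71, SE 0.44, adjusted p = 0.0256) and 22.2, 9.58, 4.14 and 3.44 CPM and 2.53, 6.11, 2.69 and 6.85 CPM in hippocampus (log2 fold change 1.09, SE 0.47, adjusted p = 0.164). Reads that Ifit3 and Ifit3b share could have been split between them in the counting, so their separate levels are uncertain. Ifit1 was not called against pCtrl in either tissue. It had 23.6, 10.2, 3.05 and 7.55 CPM and 2.38, 2.5, 3.13, 1.97 and 7.28 CPM in cortex (log2 fold change 1.68, SE 0.56, adjusted p = 0.112), and 22.2, 5.24, 4.35 and 5.5 CPM and 2.68, 6.24, 2.12 and 14.4 CPM in hippocampus (log2 fold change 0.54, SE 0.58, adjusted p = 0.635). For Ifit1 too, pCtrl mouse 75 exceeded every α-IgLON5#1 hippocampus but that of mouse 8. Ifit2 was not called in either tissue, with 26.7, 20.4, 12.8 and 16.4 CPM against 15.1, 14.1, 12.9, 13.9 and 14.4 CPM in cortex (log2 fold change 0.44, SE 0.17, adjusted p = 0.188) and 20.9, 12.1, 12.2 and 10.7 CPM against 11.2, 11.3, 11.6 and 14.9 CPM in hippocampus (log2 fold change 0.18, SE 0.18, adjusted p = 0.602).

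The OAS family makes or resembles the enzymes that make the 2′-5′ oligoadenylate activator of RNase L. All 5 of its members were called in cortex and 1 of 5 in hippocampus, but Oas3 would not have passed the count filter on the control libraries alone. Oasl2, the most abundant of them, had 26.9, 20.5, 3.95 and 10.4 CPM in α-IgLON5#1 cortices against 3.54, 4.26, 4.1, 2.6 and 5.89 CPM with pCtrl (log2 fold change 1.92, SE 0.45, adjusted p = 0.0114). Mouse 16 lay within the pCtrl range and the other 3 above it. In hippocampus Oasl2 had 24.1, 15.3, 7.42 and 9.08 CPM against 4.05, 9.14, 2.76 and 13 CPM (log2 fold change 0.94, SE 0.46, adjusted p = 0.235), with pCtrl mouse 75 above mice 16 and 17. Oas1a had 3.72, 2.85, 0.595 and 1.22 CPM and 0.282, 0.319, 0.377, 0.176 and 0.333 CPM in cortex, without overlap (log2 fold change 2.77, SE 0.53, adjusted p = 0.00176). Its hippocampal values were 3.74, 1.97, 1.38 and 0.917 CPM and 0.388, 1.02, 0.214 and 1.23 CPM (log2 fold change 1.45, SE 0.51, adjusted p = 0.0806). Oas1a belongs to a cluster of near-identical genes, which leaves its own share of the reads uncertain. Oas2 had 4.43, 1.84, 0.643 and 1.97 CPM and 0.313, 0.479, 0.683, 0.316 and 0.732 CPM in cortex (log2 fold change 2.11, SE 0.52, adjusted p = 0.0176) and 5.86, 0.901, 1.9 and 1.6 CPM and 1.23, 1.79, 0.785 and 2.41 CPM in hippocampus (log2 fold change 0.71, SE 0.50, adjusted p = 0.432), where mouse 9 lay below 3 of the pCtrl libraries. Oas3, whose levels in control cortices were at most 6 counts, had 2.5, 0.83, 0.167 and 0.61 CPM and 0.0626, 0.0532, 0.0942, 0 and 0.2 CPM in cortex (log2 fold change 3.52, SE 0.82, adjusted p = 0.0111). Its fitted fold change depends on the prior count. In hippocampus Oas3 had 1.82, 0.338, 0.153 and 0.745 CPM and 0.123, 0.244, 0.0714 and 0.761 CPM (log2 fold change 1.33, SE 0.73, adjusted p = 0.3). Oasl1, which restrains translation of Irf7, was called in both tissues, with log2 fold changes of 3.47, SE 0.78, adjusted p = 0.00807 in cortex and 2.44, SE 0.75, adjusted p = 0.0464 in hippocampus.

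Isg15 and Usp18 were called in cortex, and no member of the ISG15 system was called in hippocampus. ISG15 is a ubiquitin-like protein that is joined to other proteins, and USP18 removes it and also blocks the interferon receptor. Isg15 had 16.9, 8.12, 1.79 and 3.26 CPM in α-IgLON5#1 cortices and 1.41, 1.54, 1.88, 1.16 and 2.23 CPM in pCtrl cortices (log2 fold change 2.17, SE 0.51, adjusted p = 0.0124). In hippocampus it had 11.7, 5.41, 2.91 and 2.52 CPM and 1.66, 3.63, 1.17 and 4.76 CPM (log2 fold change 0.98, SE 0.53, adjusted p = 0.285), and mice 16 and 17 lay below pCtrl mice 15 and 75. Usp18 had 10, 4.94, 0.667 and 2.71 CPM and 0.688, 0.373, 0.824, 0.456 and 1.8 CPM in cortex (log2 fold change 2.42, SE 0.59, adjusted p = 0.0163). The hippocampal groups overlapped for Usp18 as well (7.83, 3.1, 1.41 and 1.89 CPM and 0.879, 1.92, 0.738 and 3.54 CPM, log2 fold change 0.98, SE 0.59, adjusted p = 0.351). Herc6, already higher in cortex than in hippocampus in PBS mice, had the smallest cortical difference of all members. Its values were 18.7, 16.2, 17 and 14.5 CPM and 17.6, 17.5, 13.2, 18.1 and 13.3 CPM in cortex (log2 fold change 0.06, SE 0.14, adjusted p = 0.89) and 9.6, 5.13, 7.08 and 5.76 CPM and 4.97, 5.89, 4.9 and 6.04 CPM in hippocampus (log2 fold change 0.34, SE 0.16, adjusted p = 0.204).

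Mx1 had the largest log2 fold change of the list against pCtrl in both tissues. Mx proteins are GTPases that trap viral particles, and the Mx1 gene of C57BL/6 mice is known to make no functional protein. In α-IgLON5#1 cortices Mx1 had 13, 4.44, 0.548 and 2.73 CPM, against 0.407, 0.319, 0.471, 0.211 and 0.565 CPM with pCtrl and 0.101 to 0.536 CPM with PBS (log2 fold change 3.67, SE 0.81, adjusted p = 0.00691). Mouse 16 lay below the highest pCtrl cortex. Hippocampi had 12.6, 3.27, 1.01 and 0.659 CPM and 0.225, 0.997, 0.167 and 0.958 CPM, so that here mouse 17 lay within the pCtrl range (log2 fold change 2.84, SE 0.81, adjusted p = 0.033). Mx2, which the annotation lists as a polymorphic pseudogene, was called in cortex (9.24, 3.61, 0.619 and 3.01 CPM against 0.438, 0.745, 0.753, 0.597 and 1.26 CPM, log2 fold change 2.43, SE 0.54, adjusted p = 0.00781). In hippocampus Mx2 had 7.78, 2.08, 1.07 and 1.58 CPM and 0.981, 1.32, 0.642 and 1.72 CPM (log2 fold change 1.39, SE 0.55, adjusted p = 0.131). Rsad2 encodes viperin, an enzyme that makes a chain-terminating nucleotide, and lies beside Cmpk2, which makes the substrate. Rsad2 was called in cortex, with 21.8, 6.17, 1.17 and 4.57 CPM against 1.38, 0.958, 0.824, 0.843 and 1.26 CPM (log2 fold change 2.99, SE 0.63, adjusted p = 0.00427). It had 16.1, 3.77, 2.57 and 1.78 CPM and 1.43, 2.24, 1.48 and 3.41 CPM in hippocampus (log2 fold change 1.48, SE 0.63, adjusted p = 0.159). Cmpk2 was not called in either tissue, with 41.5, 30.7, 20 and 23 CPM against 23.5, 24.2, 23, 21.7 and 22.9 CPM in cortex (log2 fold change 0.32, SE 0.15, adjusted p = 0.292) and 33, 22.6, 20.6 and 19.7 CPM against 21.6, 21.2, 24.6 and 22.5 CPM in hippocampus (log2 fold change 0.09, SE 0.16, adjusted p = 0.799).

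Both membrane restriction factors were called in cortex, and Bst2 in hippocampus too. BST2, or tetherin, holds budding virus particles at the cell surface. Bst2 had 14.3, 16.1, 4.05 and 7.6 CPM in α-IgLON5#1 cortices, against 2.53, 2.56, 3.37, 2.7 and 2.79 CPM with pCtrl (log2 fold change 1.89, SE 0.34, adjusted p = 0.00088). PBS mouse 38, at 4.70 CPM, lay above mouse 16. In hippocampus Bst2 had 12.6, 13.5, 6.1 and 8.31 CPM and 3, 5.23, 2.74 and 5.38 CPM, again without overlap (log2 fold change 1.30, SE 0.35, adjusted p = 0.0255). Bst2 was the single member in which mouse 9 was higher than mouse 8 in both tissues. Ifitm3 had 53.4, 22.9, 9.6 and 17.4 CPM and 8.07, 8.73, 10.2, 7.72 and 9.21 CPM in cortex (log2 fold change 1.55, SE 0.35, adjusted p = 0.00933) and 44.8, 23.4, 11.6 and 19.9 CPM and 9.99, 11.7, 9.4 and 12.7 CPM in hippocampus (log2 fold change 1.18, SE 0.37, adjusted p = 0.0541). In both tissues mouse 16 stayed within the pCtrl range of Ifitm3.

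Of the Schlafen genes, which encode regulators of immune cell growth and of tRNA, Slfn2 was called in both tissues, Slfn8 in cortex and Slfn5 in neither. Slfn2 had 13.5, 6.42, 2.26 and 3.57 CPM and 1.1, 0.852, 1.88, 1.19 and 1.3 CPM in cortex (log2 fold change 2.31, SE 0.42, adjusted p = 0.00102), and 11.2, 4.73, 3.34 and 3.87 CPM and 1.8, 2.52, 1.36 and 2.82 CPM in hippocampus (log2 fold change 1.43, SE 0.43, adjusted p = 0.0436). The groups did not overlap in either tissue. For Slfn8 the cortices did not overlap (12.9, 5.59, 2.33 and 3.89 CPM and 1.47, 1.65, 1.81, 0.983 and 2.16 CPM, log2 fold change 1.92, SE 0.42, adjusted p = 0.00574), and in hippocampus mouse 17 lay within the pCtrl range (11.7, 3.89, 3.71 and 2.84 CPM and 1.49, 3.1, 1.36 and 2.43 CPM, log2 fold change 1.38, SE 0.43, adjusted p = 0.0521). Slfn5 had 22.6, 10, 9.71 and 12.7 CPM against 7.45, 7.03, 9.84, 7.41 and 5.82 CPM in cortex (log2 fold change 0.87, SE 0.26, adjusted p = 0.0581) and 19.3, 8.56, 10.1 and 11.5 CPM against 7.3, 8.72, 6.23 and 8.74 CPM in hippocampus (log2 fold change 0.67, SE 0.27, adjusted p = 0.136).

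Among nuclear proteins, 3 of 4 members were called in cortex and 2 of 4 in hippocampus. Ifi204, a DNA-binding protein of the AIM2-like receptor family, had 8.45, 6.35, 1.4 and 2.31 CPM in α-IgLON5#1 cortices, against 0.25, 0.532, 0.424, 0.0702 and 0.632 CPM with pCtrl and 0.251 to 0.568 CPM with PBS (3.6, SE 0.58, adjusted p = 0.000272). In hippocampus it had 8.17, 4.9, 2.6 and 2.24 CPM, against 0.368, 1.22, 0.381 and 2.06 CPM with pCtrl and 0.141 to 0.645 CPM with PBS (log2 fold change 2.13, SE 0.55, adjusted p = 0.0186). No α-IgLON5#1 library overlapped with a control library of its tissue. Parp14 encodes an ADP-ribosyltransferase and had 39, 15.4, 6.21 and 12.5 CPM and 4.57, 4.68, 6.15, 4.6 and 6.48 CPM in cortex (log2 fold change 1.78, SE 0.38, adjusted p = 0.00579). Its hippocampal values were 36.9, 13.4, 9.32 and 11.5 CPM and 5.13, 7.99, 4.95 and 9.77 CPM (log2 fold change 1.34, SE 0.40, adjusted p = 0.0419), and mouse 16 lay below pCtrl mouse 75. Phf11d was called in cortex (4.32, 3.32, 0.595 and 1.11 CPM and 0.344, 0.479, 0.377, 0.281 and 0.732 CPM, log2 fold change 2.38, SE 0.47, adjusted p = 0.00239) and had 2.81, 2.03, 1.2 and 0.888 CPM and 0.49, 0.978, 0.381 and 1.06 CPM in hippocampus (log2 fold change 1.20, SE 0.48, adjusted p = 0.126). Sp100, a protein of nuclear bodies, was called against PBS in both tissues and against pCtrl in neither. In cortex it had 9.43, 6.39, 3.31 and 5.47 CPM against 2.78, 3.57, 4.36, 3.12 and 3.59 CPM with pCtrl (log2 fold change 0.81, SE 0.26, adjusted p = 0.0874) and 2.28 to 3.6 CPM with PBS (log2 fold change 1.03, SE 0.26, adjusted p = 0.0207). Its hippocampal values were 11.2, 5.29, 4.5 and 6.16 CPM against 3.21, 4.85, 3.57 and 5.84 CPM with pCtrl (log2 fold change 0.63, SE 0.27, adjusted p = 0.164) and 2.5 to 3.97 CPM with PBS (log2 fold change 1.07, SE 0.26, adjusted p = 0.012).

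Of the 7 remaining members, 5 were called in cortex and 2 in hippocampus. Lgals3bp had the steadiest difference of the list. In α-IgLON5#1 cortices it had 51.5, 51.3, 25.4 and 40.3 CPM, against 13.9, 13.2, 19.5, 11 and 17.7 CPM with pCtrl and 15.2, 13.2, 15, 20.7 and 13.2 CPM with PBS. In hippocampus it had 60.8, 59.9, 45.5 and 39.1 CPM, against 17.9, 26.1, 14.9 and 21.7 CPM with pCtrl and 19, 22.9, 18.1, 21.6 and 17.3 CPM with PBS. The lowest α-IgLON5#1 library lay above the highest control library in each tissue. Its log2 fold change against pCtrl was 1.48, SE 0.20, adjusted p = 3.21e-05 in cortex and 1.35, SE 0.21, adjusted p = 0.000128 in hippocampus, and with single libraries left out it ran from 1.36 to 1.66 and from 1.23 to 1.5. Trim30a, a ubiquitin ligase gene, did not overlap between α-IgLON5#1 and pCtrl either, with 18.5, 8.84, 4.33 and 6.02 CPM and 2.66, 1.65, 3.06, 2.14 and 3.43 CPM in cortex (log2 fold change 1.84, SE 0.36, adjusted p = 0.00203) and 16.4, 5.86, 6.5 and 5.67 CPM and 2.45, 5.23, 2.17 and 4.81 CPM in hippocampus (log2 fold change 1.22, SE 0.37, adjusted p = 0.0462).

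Ifi44, Rtp4 and Ifi35 were called in cortex and not in hippocampus. Ifi44 had 5.14, 3.14, 0.524 and 1.7 CPM and 0.657, 0.373, 0.848, 0.421 and 0.831 CPM in cortex (2.0, SE 0.46, adjusted p = 0.0103), and 3.05, 1.69, 1.07 and 1.66 CPM and 0.634, 1.73, 0.619 and 1.99 CPM in hippocampus (log2 fold change 0.56, SE 0.47, adjusted p = 0.522). Rtp4, which encodes a chaperone of receptors, had 10.4, 7.14, 2.12 and 3.55 CPM and 1.22, 0.852, 2.78, 1.37 and 2.46 CPM in cortex (log2 fold change 1.69, SE 0.40, adjusted p = 0.0114), and 8.86, 4.34, 2.54 and 3.7 CPM and 1.98, 3.18, 1.55 and 4.1 CPM in hippocampus (log2 fold change 0.83, SE 0.41, adjusted p = 0.24). For both genes pCtrl mouse 75 lay above mice 16 and 17 in hippocampus. Ifi35 had 4.27, 2.67, 1.71 and 2.28 CPM and 1, 1.33, 1.53, 1.23 and 1.6 CPM in cortex, without overlap (log2 fold change 1.02, SE 0.25, adjusted p = 0.0155), and 3.84, 1.92, 1.87 and 2.06 CPM and 1.59, 1.77, 1.48 and 2.38 CPM in hippocampus (log2 fold change 0.41, SE 0.26, adjusted p = 0.37). Ifi27l2a and Xaf1, the latter coding for a promoter of apoptosis, were called in cortex against PBS but not against pCtrl. Ifi27l2a had 3.07, 3.28, 0.667 and 1.85 CPM and 0.407, 0.213, 1.2, 0.632 and 1.43 CPM in cortex (log2 fold change 1.43, SE 0.45, adjusted p = 0.0834) and 3.54, 3.15, 1.01 and 2.52 CPM and 1.06, 1.58, 0.714 and 1.38 CPM in hippocampus. Xaf1 had 12.4, 9.31, 3.64 and 4.84 CPM and 3.41, 3.03, 3.93, 4.07 and 4.29 CPM in cortex (log2 fold change 1.00, SE 0.29, adjusted p = 0.0524) and 11, 6.87, 4.63 and 3.24 CPM and 4.64, 4.27, 3.28 and 4.76 CPM in hippocampus.

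Against PBS, 32 members were called higher in cortex and 18 in hippocampus, and 0 lower in either. Among all genes tested, 2.24% were called higher in cortex and 2.56% in hippocampus, and 0.00493% and 0.109% lower. These comparisons use the same α-IgLON5#1 libraries as those against pCtrl. The median log2 fold change of the members was 1.95 in cortex and 1.45 in hippocampus, beside -0.02 and -0.01 over all genes, and all 39 members were above 0, where 43.5% and 48.3% of all genes were. Without the library of mouse 8 in that tissue, 13 and 5 members were called, and without hippocampal PBS mouse 74, which carried the pituitary transcripts, the hippocampal count was 12. Over all genes 261 and 376 were called higher without mouse 8 and 455 without PBS mouse 74, where all libraries gave 454 in cortex and 519 in hippocampus. In hippocampus the 8 members called against PBS and not against pCtrl were Oas1a, Oas3, Oasl2, Ifitm3, Slfn8, Phf11d, Sp100 and Rtp4. In cortex they were Ifit1, Sp100, Ifi27l2a and Xaf1. The α-IgLON5#1 hippocampi lay above all PBS hippocampi in 22 members, and the cortices in 16 members, against 4.49% and 3.14% of all genes. Ifih1, Irf9, Stat2, Ifit2, Herc6, Cmpk2 and Slfn5 were called in none of the 4 comparisons.

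No member differed between pCtrl and PBS in either tissue by edgeR or DESeq2. In hippocampus 0.0493% of all genes tested were called higher and 0.0148% lower, and in cortex 0.0% in both directions. At an unadjusted p under 0.05 (edgeR), there were 3 members in hippocampus and 1 in cortex, against 14.0% and 8.14% of all genes. The hippocampal number was 17 with the composition score as a covariate and 13 in a fit of only the groups compared, against 6.21% and 14.7% of all genes. Every pCtrl library lay above every PBS library for 1 member in hippocampus (Ifih1) and 0 in cortex, as for 1.87% and 0.755% of all genes. All 39 members nevertheless had a log2 fold change above 0 in hippocampus, with a median of 0.40, while 50.7% of all genes did. With single libraries left out, 34 to 39 members were above 0, with medians from 0.216 to 0.505. The lowest count and median came without pCtrl mouse 75. The pCtrl hippocampi fell apart in level. Mouse 75 was the highest of the 4 in 31 members and mouse 15 in 7, whereas mouse 37 was the lowest in 29 and mouse 10 in 9. Mice 10 and 37 are those with the lower hippocampal neuron markers. With the composition score as a covariate, the median between pCtrl and PBS was 0.78 in hippocampus and 0.31 in cortex, and again no member was called. Ifit1 shows the spread of the control group, with 2.68, 6.24, 2.12 and 14.4 CPM in pCtrl and 3, 4.33, 6.95, 4.1 and 2.33 CPM in PBS hippocampi. In cortex the median log2 fold change between pCtrl and PBS was 0.09, and 30 of 39 members were above 0, where 49.0% of all genes were.

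The response was compared between tissues directly, as an interaction in the same fit. No member differed between cortex and hippocampus in its response to α-IgLON5#1, neither against pCtrl (smallest adjusted p = 0.439, edgeR) nor against PBS, and 0.0% and 0.00493% of all genes did. At an unadjusted p under 0.05 there were 1 and 0 members by edgeR, against 10.6% and 3.32% of all genes, and 2 and 0 by DESeq2. With the mouse as a block, which leaves out mouse 11, 0 members passed the adjusted p against either control, while 19 and 7 had an unadjusted p under 0.05, against 11.6% and 4.38% of all genes. In the same mice without the block, 0 and 0 members had an unadjusted p under 0.05. The hippocampal response against pCtrl was below the cortical one in 38 of 39 members, with a median difference of -0.62 on the log2 scale, and 49.3% of all genes lay on that side. Against PBS it was below in 36 of 39, with a median difference of -0.31, and 46.8% of all genes were. With single mice left out, the median difference ran from -0.836 to -0.535 against pCtrl and from -0.465 to -0.261 against PBS. In these fits 1 member lay on the other side against pCtrl, and 2 to 6 against PBS. The difference against pCtrl was -2.20 for Oas3 (approximate 95% interval -4.43 to 0.03), which had at most 6 counts in control cortices. For Ifi44 it was -1.44 (-2.73 to -0.15), and for Lgals3bp -0.13 (-0.69 to 0.43). These intervals leave room for responses that differ between tissues by more than 2-fold in single genes. The higher count of calls in cortex than in hippocampus is therefore not a shown difference between the tissues.

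**Figure D4:**
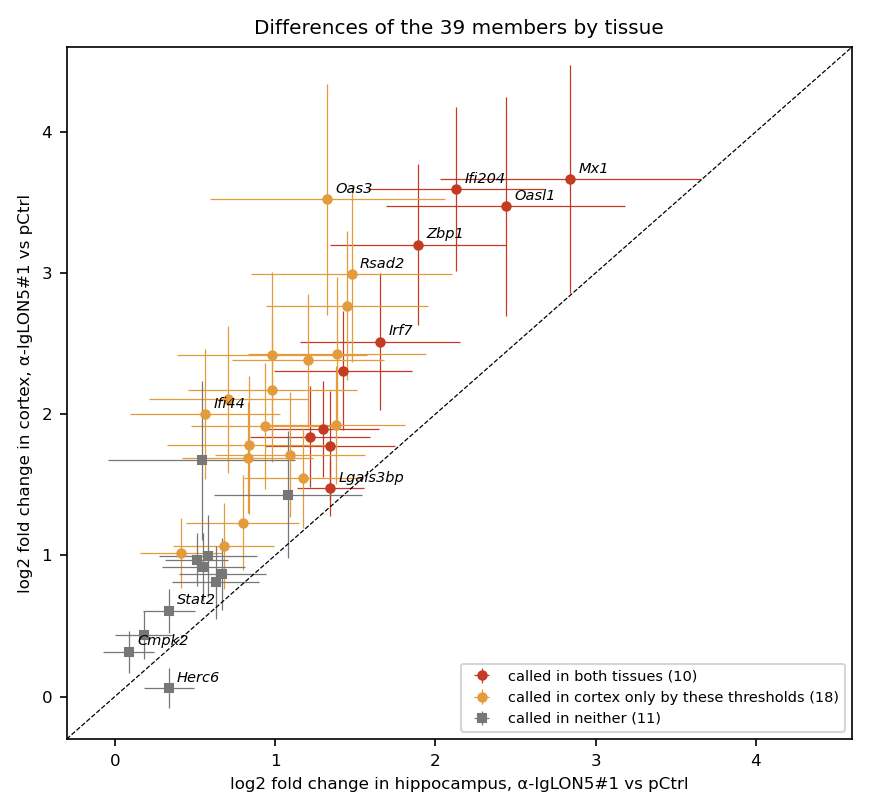
Log2 fold change of each member between α-IgLON5#1 and pCtrl in hippocampus (horizontal) and in cortex (vertical), with bars of 1 SE and a dashed line of equal change, colored by the calls. The points lie above the line except for Herc6, and the bars of most members reach toward it.

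The α-IgLON5#1 mice formed a graded series. For each library, the log2 CPM of a member minus its pCtrl mean in that tissue was taken as the response, and the median over the 39 members was computed. In cortex this median was 2.87 in mouse 8, 1.94 in mouse 9, 1.29 in mouse 17 and 0.15 in mouse 16. The hippocampi gave 2.03, 0.91, 0.52 and 0.29 in the same order of mice. Cortices of pCtrl mice lay between -0.20 and 0.29 and those of PBS mice between -0.38 and 0.34, so that the cortex of mouse 16 was within the range of the controls. Hippocampi of pCtrl mice lay between -0.58 and 0.57, a range that held mice 16 and 17, and those of PBS mice between -0.85 and -0.14. Mouse 8 exceeded every pCtrl library in 39 of 39 members in both tissues. Mouse 9 did so in 38 members in cortex and 26 in hippocampus, mouse 17 in 37 and 13, and mouse 16 in 10 and 15. The share of all genes above every pCtrl library was not computed for single mice, so these counts only describe the members. The order within the group was nearly the same from gene to gene in cortex, where mouse 8 was the highest in 37 members, mouse 9 the second in 34, mouse 17 the third in 36 and mouse 16 the lowest in 38. In hippocampus mouse 8 was again the highest in 37 members, but the lowest place was shared between mouse 16 (20 members) and mouse 17 (16 members). Within a mouse, the response was larger in cortex than in hippocampus for 38 members in mouse 8, 39 in mouse 9 and 38 in mouse 17, and for 13 in mouse 16. Both responses were taken against the pCtrl mean of their own tissue, and the share of all genes on that side was not computed. These counts are thus a description and not a shown difference between the tissues.

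**Figure D5:**
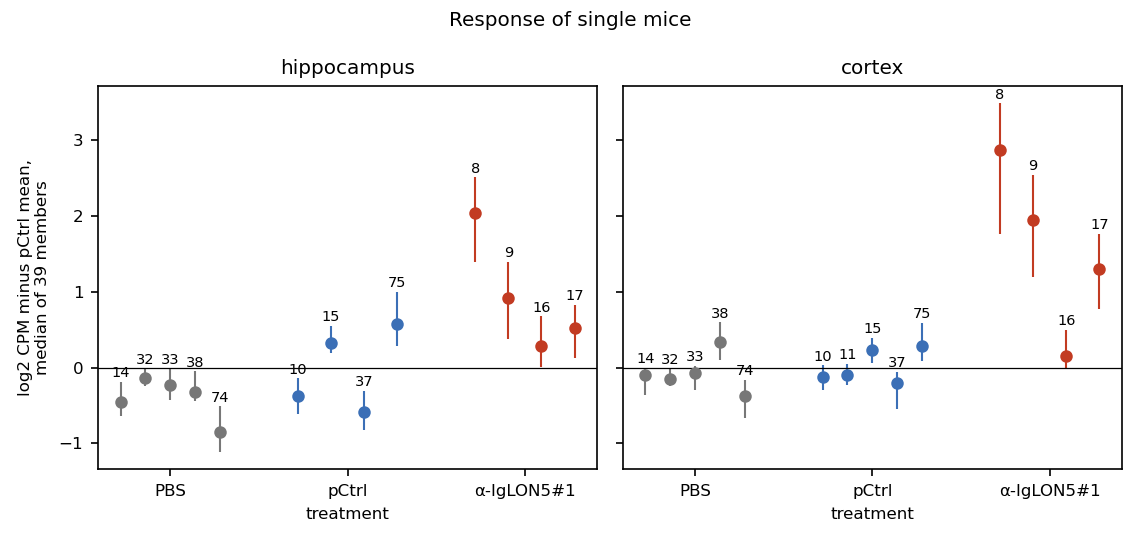
Median over the 39 members of the log2 CPM of a library minus the pCtrl mean of its tissue (points) with the middle 50% of members (bars), for each mouse, labeled by its number, in hippocampus and cortex. Mouse 8 stands highest in both tissues, mouse 16 lies within the control range, and pCtrl mice 15 and 75 lie above pCtrl mice 10 and 37 in hippocampus.

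The ligands of the pathway were at or near the floor of detection in these libraries. Of 17 genes of type I interferons, 7 had at least 1 count in any of the 27 libraries, 18 counts were recorded in total, and no gene had more than 2 counts in a library. Ifnb1 had at most 2 counts, and Ifng, the type II interferon, at most 1. Totals for the ligands were 2 counts in each tissue of mouse 8, 2 in the hippocampus of pCtrl mouse 15, 3 in the hippocampus of PBS mouse 74 and at most 1 in any other library. At this depth a ligand made by few cells or at an earlier time would not be seen.

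The other genes of the pathway were examined from a list of 40 genes, of which 22 passed the filter. Against pCtrl, 5 were called higher in hippocampus and 2 in cortex, and 0 lower, while 10 and 8 passed the adjusted p in the same direction whatever the fold, as did 4.23% and 3.01% of all genes. Among the 4 genes of receptor chains and kinases, 1 passed the adjusted p in each tissue and 0 the fold. In cortex the receptor chain gene Ifnar2 passed it (log2 fold change 0.42, SE 0.10, adjusted p = 0.0126), while Ifnar1 was at 0.04, SE 0.05, adjusted p = 0.797, and the kinase gene Jak1 at -0.03, SE 0.05, adjusted p = 0.815. Irf8, a factor of the myeloid lineage, was called in hippocampus (log2 fold change 1.38, SE 0.15, adjusted p = 1.5e-06) and had 0.92, SE 0.14, adjusted p = 0.000175 in cortex. Tlr9, an endosomal DNA sensor, was called in both (log2 fold change 1.68, SE 0.19, adjusted p = 1.53e-06 in hippocampus and 1.08, SE 0.17, adjusted p = 0.000269 in cortex). Tmem173, which encodes the adaptor STING, was called in hippocampus (log2 fold change 1.15, SE 0.22, adjusted p = 0.00131). Irf5, a factor downstream of the Toll-like receptors, lay just past the fold there (log2 fold change 1.00, SE 0.18, adjusted p = 0.000576). Ptpn6, which encodes the phosphatase SHP-1 of blood and microglial cells, had the largest difference of the 22 genes in both tissues. It had 14.4, 22, 17.3 and 8.42 CPM in α-IgLON5#1 and 3.23, 3.91, 3.47 and 3.36 CPM in pCtrl hippocampi (log2 fold change 2.14, SE 0.23, adjusted p = 1e-06), and 1.82, SE 0.21, adjusted p = 9.15e-06 in cortex. Socs3, a feedback inhibitor of cytokine receptors, was at 23.1, 2.82, 4.32 and 3.7 CPM in hippocampi and 41.8, 9.6, 7 and 6.15 CPM in cortices of α-IgLON5#1 mice, with mouse 8 far above the others, and was not called against pCtrl in either.

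Levels of markers of other cell types also differed between the groups. Summed over 10 microglial markers, pCtrl hippocampi had 343 to 387 CPM and α-IgLON5#1 hippocampi 435, 768, 610 and 454 CPM, and 2 of the 10 genes were called higher. In cortex the ranges were 340 to 418 CPM and 418 to 465 CPM. The 7 markers of monocytes and neutrophils came to 24.1, 3.83, 4.57 and 9.8 CPM in α-IgLON5#1 hippocampi, against 2.19 to 5.75 CPM with pCtrl. In cortex they came to 36.8, 6.57, 2.81 and 5.68 CPM against 1.86 to 4.15 CPM, and Ly6g was at 0 in all 4 α-IgLON5#1 cortices. Of the 6 that were tested, 1 was called higher against pCtrl in hippocampus and 3 in cortex. Plasma cell markers (5 genes) had 59, 7.04, 43.8 and 87.5 CPM in hippocampus and 31.5, 7.79, 18.7 and 35.1 CPM in cortex, against at most 4.05 CPM in any pCtrl library. Of the 4 tested, 1 was called higher against pCtrl in each tissue, with median log2 fold changes of 0.66 in hippocampus and 0.43 in cortex. Mouse 9, second in the interferon response, was the lowest in the summed plasma cell markers. Markers of 6 T cell and 5 B cell genes were at 2.08 to 4.58 and 1.92 to 7.92 CPM in α-IgLON5#1 hippocampi, against 0.857 to 2.01 and 0.833 to 1.2 CPM with pCtrl. In cortex they were at 2.35 to 4.05 and 1.44 to 6.52 CPM, against 0.998 to 1.65 and 0.753 to 1.2 CPM. In hippocampus 1 of 3 tested T cell genes and 4 of 5 B cell genes were called higher against pCtrl, and in cortex 1 and 2. The 5 astrocyte markers summed to 1880 to 2680 CPM and 1490 to 1750 CPM in the same groups of hippocampi. In cortex they summed to 2490, 1390, 1610 and 1640 CPM against 1260 to 1360 CPM. Of the 5, 1 was called higher in each tissue, and the median log2 fold change was 0.09 in hippocampus and -0.07 in cortex. Border macrophage markers (5 genes) came to 24.7, 3.66, 11.1 and 20.6 CPM against 15.9 to 24 CPM in hippocampus, and 29.8, 3.21, 23.3 and 20.9 CPM against 12.2 to 21.1 CPM in cortex, with 1 called lower in each. By summed markers, mouse 8 was the highest of the 4 α-IgLON5#1 mice in both tissues for monocytes and neutrophils, T cells and B cells. The same held for astrocytes and border macrophages, and mouse 8 was the lowest for microglia. Plasmacytoid dendritic cells are the known main source of interferon α in blood, and of their 5 markers 4 were tested, of which 2 were called higher in hippocampus and 1 in cortex. Their sum, 491 to 545 CPM in α-IgLON5#1 and 487 to 548 CPM in pCtrl hippocampi, includes Tcf4, which brain cells express widely, and Ly6d was at 0 in PBS hippocampi. Endothelial markers summed to 133 to 184 CPM and 154 to 166 CPM, with 0 of 5 called. Neuron markers summed to 4620 to 4940 CPM in α-IgLON5#1 and 4900 to 5770 CPM in pCtrl hippocampi. In cortex their ranges were 5600 to 6530 CPM and 6290 to 7060 CPM. Oligodendrocyte markers came to 2110 to 3670 CPM and 2670 to 4420 CPM in hippocampus, and to 2200 to 2780 CPM and 1640 to 3360 CPM in cortex. In both lists 0 of 5 genes were called against pCtrl in either tissue. The part of these cell types in the interferon response was not tested.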

How the data were processed

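RNA was sequenced from contralateral cortex and hippocampus of 14 mice (27 libraries, TruSeq Stranded mRNA, paired-end). The authors aligned reads to GRCm38 with STAR at default settings and deposited raw counts per gene. The counting program, annotation release and strand setting are not given in the sources used here, so antisense partners cannot be told apart for certain. Of the members, 11 share exonic bases with another gene, 5 of them on the same strand, and Ifit3, Ifit3b, Oas1a, Slfn8, Trim30a, Ifi204 and Phf11d have close paralogs.

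Genes that reached 10 counts in 4 or more libraries (20271) entered 1 edgeR quasi-likelihood fit (edgeR 4.0.16, limma 3.58.1, R 4.3.3) with TMM factors, 6 group means and all 27 libraries. Benjamini-Hochberg adjustment covered all genes tested. A call required an adjusted p under 0.05 and a fold above 2, and a call of a tissue-dependent response the adjusted p alone. Log2 CPM used a prior count of 1, and intervals of fold changes are approximate 95% intervals from the SE. Alternatives were DESeq2 1.42.0, RLE size factors, no count filter, no fold threshold, a composition covariate, fewer groups or mice, left-out libraries and the mouse as a block. Composition was scored as mean log2 CPM of 8 cortical minus 8 hippocampal neuron markers.

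Library totals were 19385642 to 58550621 counts, and floors of 3 counts cover counting error only. Libraries of a tissue came from different mice, and the same number in both tissues is the same mouse. Paired by mouse, deviations of cortex and hippocampus from their group means correlated between -0.0498 and 0.443 (median 0.194, above 0.1 in 8 of 13 pairs). The members and lists were chosen with earlier results of these data known. Values in single libraries were to be given for members highest in their role group, for the 6 smallest adjusted p in each tissue and for members whose call differed between tissues or controls, which gave 35 members. PBS values of most of them are shown in the heat map only. A gene of the pathway list is counted in its totals but is not reported here.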

Additional observations from a re-analysis of the deposited data

Results flagged for a closer look

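In each of the 39 members and in the median response, all 6 groups were examined for a library that stood apart from the others by Dixon's criterion at the 95% level. This held in 23 of 240 groups of 4 or 5 values, where chance alone passes in about 5% of groups, and the members vary together across libraries.

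Of the 23, 11 were the hippocampus of α-IgLON5#1 mouse 8, which was the highest of its group in each. There Ddx58 had 26 CPM, while the other 3 mice had 9.01 to 9.83 CPM. Stat2 had 57.7 CPM against 32.3 to 34.2 CPM, Ifit1 had 22.2 CPM against 4.35 to 5.5 CPM, and Ifit2 had 20.9 CPM against 10.7 to 12.2 CPM. Oasl1 had 5.76 CPM against 0.745 to 1.07 CPM, Mx2 had 7.78 CPM against 1.07 to 2.08 CPM, and Rsad2 had 16.1 CPM against 1.78 to 3.77 CPM. Slfn8 had 11.7 CPM against 2.84 to 3.89 CPM, and Parp14 had 36.9 CPM against 9.32 to 13.4 CPM. Trim30a had 16.4 CPM against 5.67 to 6.5 CPM, and Ifi35 had 3.84 CPM against 1.87 to 2.06 CPM.

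The cortex of PBS mouse 38 was the highest of its group in 7 of the 23, with 7.5 CPM of Ddx58 (others 4.48 to 5.24 CPM), 12.5 CPM of Ifitm3 (6.06 to 7.23 CPM) and 20.7 CPM of Lgals3bp (13.2 to 15.2 CPM). It also had 1.1 CPM of Oas2, 0.126 CPM of Oas3, 0.946 CPM of Ifi44 and 1.29 CPM of Ifi27l2a. The hippocampus of the same mouse had 2.02 CPM of Dhx58 (1.14 to 1.22 CPM). The cortex of PBS mouse 32 had 1.12 CPM of Mx2 (0.639 to 0.689 CPM). In pCtrl mouse 75, Ifit2 had 14.9 CPM in hippocampus (11.2 to 11.6 CPM) and Ifit1 had 7.28 CPM in cortex (1.97 to 3.13 CPM). The cortex of pCtrl mouse 37 was the lowest of its group in Oasl1, at 0.0702 CPM (0.213 to 0.235 CPM).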

How the results depend on the processing

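The direction of the member medians against pCtrl and PBS was the same under all alternatives run, whereas the number of calls depended on which libraries entered. In hippocampus against pCtrl, the 10 calls became 1 with the composition covariate, 1 with only the groups compared, 0 within mice 8 to 17 and 1 to 12 with single libraries left out. In cortex against pCtrl, the 28 calls became 10 with only the groups compared, 0 within mice 8 to 17 and 9 to 35 with single libraries left out. Against PBS, the 18 hippocampal calls ran from 5 to 28 and the 32 cortical calls from 13 to 35 with single libraries left out, and the cortical count was 15 with only the groups compared. Chosen after seeing the data, leaving out pCtrl hippocampi 10 and 37 together gave 1 call, and leaving out both libraries of mouse 8 gave 1 and 15 calls against pCtrl and 11 and 20 against PBS, in hippocampus and cortex. The cause of these losses was not tested beyond the libraries left out. Mice 8 to 17 were not compared with PBS, since 1 PBS mouse is left among them. DESeq2 called 12, 30, 21 and 32 members, and RLE factors 10, 28, 18 and 32. Medians with single libraries left out ran from 0.41 to 1.35 and 1.27 to 2.08 against pCtrl, from 0.93 to 1.69 and 1.47 to 2.24 against PBS, and from 0.22 to 0.51 and 0.03 to 0.22 between pCtrl and PBS, in hippocampus and cortex.

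Against pCtrl without mouse 8, Ifit1 (-0.34), Oas2 (-0.041, and -0.039 without both libraries of mouse 8), Ifit2 (-0.07) and Cmpk2 (-0.10) in hippocampus and Herc6 (-0.001) in cortex turned below 0, and the highest values with another library left out were 1.32, 0.992, 0.296, 0.174 and 0.122. Without pCtrl hippocampi 10 and 37, Ifit1 (-0.157) and Ifi44 (-0.014) in hippocampus turned below 0 too. None of the 6 was called in that tissue against pCtrl.

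With the replicate block, 0 members had a tissue-dependent response against pCtrl or PBS (19 and 7 at an unadjusted p under 0.05 in edgeR), against 0 and 0 in the same mice without it. Between tissues of PBS mice, 1 member was called with and without the block, and 6 passed the adjusted p with it (12 the unadjusted p, as did 38.8% of all genes), against 1 and 1 in the same mice without it.

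Depth limits Oas3, Oasl1 and Zbp1, which had few counts in control libraries, and the interferon genes themselves.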
